A study of Mus musculus with 2 samples.

Results

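The mouse microRNAs (miRNAs) mmu-miR-31, mmu-miR-203, mmu-miR-375, mmu-miR-802 and mmu-miR-7a, linked to epithelial differentiation and to hormone-secreting cells, were measured in mononuclear cells taken from the lamina propria of the colon. All array probes that carry one of these 5 names, on either arm of the precursor, were taken, which gave 11 of the 1900 mouse miRNA probes. The study asked how the gut microbiota bears on miRNA levels by setting mice kept specific pathogen-free (SPF), whose gut is colonised, against germ-free mice, whose gut is not. Both groups were male Balb/c mice given no further treatment that the labels name, and each was represented by 1 array of total RNA labelled with Hy5. The labels give neither the age of the mice, nor how many contributed to an array, nor how the mononuclear cells were isolated. With 1 array per group and 1 spot per probe, no difference has a replicate check and no test between the groups was possible.

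A miRNA is cut as a duplex from a hairpin precursor, and either strand of the duplex, the 5p or the 3p arm, can be loaded into the silencing complex. The loaded strand then pairs with messenger RNAs mainly through its seed, bases 2 to 8. miR-203 drives the differentiation of stratified epithelium in mouse skin by repressing the transcription factor p63, and miR-31 supports intestinal stem cells during regeneration in mice. miR-375 and miR-7 are known from pancreatic islets and other endocrine cells, where both restrain insulin secretion in mice. miR-802 is known for its higher level in the liver of obese mice. They are known mainly from epithelial and endocrine cells, whereas a mononuclear preparation is meant to hold leukocytes, in some of which miR-31 also occurs.

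The arms on which the comparison turns are shown first with their seeds in capitals, 5′ to 3′, as given by RefSeq on GRCm38.p6, because no 2 of them share a seed and each probe therefore stands for a separate set of potential targets.
miR-203-3p: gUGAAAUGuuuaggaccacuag
miR-31-5p: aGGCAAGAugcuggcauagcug
miR-375-5p: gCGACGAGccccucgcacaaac
miR-802-3p: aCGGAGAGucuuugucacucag
miR-7a-5p: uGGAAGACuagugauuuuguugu

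RefSeq gave a mature sequence for 10 of the 11 probes, and these 10 hold 10 different seeds. No other miRNA on the array with a known sequence shared the seed of miR-203-3p, miR-31-5p, miR-375-5p or miR-802-3p. The nearest other sequence to miR-203-3p, miR-6382, was 8 single-base edits away. The miR-203 hairpin is shown with both arms in capitals, because 1 of its arms was detected and the other was not.
Mir203 hairpin: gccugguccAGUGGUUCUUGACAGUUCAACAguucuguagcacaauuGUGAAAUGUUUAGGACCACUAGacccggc
In GENCODE M21 (GRCm38), Mir203 lies on the plus strand at chr12:112130880-112130955, outside other genes and 3321 bases from Aspg. Mir31 lies at chr4:88910557-88910662 in an exon of the long non-coding RNA gene AL805899.1, on its strand. Mir375 lies on the minus strand at chr1:74900658-74900721, outside other genes and 1350 bases from Cfap65. Mir802 lies on the plus strand at chr16:93369720-93369816, outside other genes. miR-7a has 2 precursor genes, Mir7-1 in an intron of Hnrnpk, on its strand, at chr13:58392779-58392886, and Mir7-2 at chr7:78888277-78888373, outside other genes.

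The deposited values are median spot intensities in the red channel, on a linear scale. Blank spots averaged 158.3 on the SPF array (SD 5.33, 895 spots) and 128.5 on the germ-free array (SD 4.53, 896 spots). Net intensity is the intensity minus this mean, and the floor for detection is the blank mean + 2 SD, an intensity of 169.0 on the SPF array and 137.6 on the germ-free array. A stricter level, the mean + 2 SD of 174 spots without a probe, was 202.2 on the SPF array and 165.8 on the germ-free array. SPF net intensities were multiplied by 0.849, which makes the median of the 1471 miRNA probes above the floor on both arrays the same. Because probes differ in how well they bind, intensities are compared between arrays for 1 probe or 1 summed list, not between probes or lists.

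Of the 11 probes, 8 were above the floor on both arrays, and 6 of these were also above the stricter level on both. Of all 1900 miRNA probes, 1471 were above the floor on both arrays and 1041 above the stricter level. Detection of the 11 was thus close to that of the whole array. At least 2-fold higher on the SPF array was 1 of the 8, miR-203-3p, where 1.56% of all 1471 probes were. None of the 8 was at least 2-fold lower, where 1.43% of all probes were, and 2.99% of all probes passed 2-fold in either direction. At 1.5-fold, 1 of the 8 was higher (4.62% of all probes) and 1 was lower (7.61% of all probes), where 12.2% of all probes passed in either direction. The log2 SPF over germ-free of the other 7 ran from -0.62 to 0.37. The median over the 8 probes was 0.02, beside -0.06 over all 1471, with 4 probes above 0 and 4 below. In RNA from a mixed isolate, fewer cells of a type and less RNA per cell cannot be told apart.

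**Figure D1:**
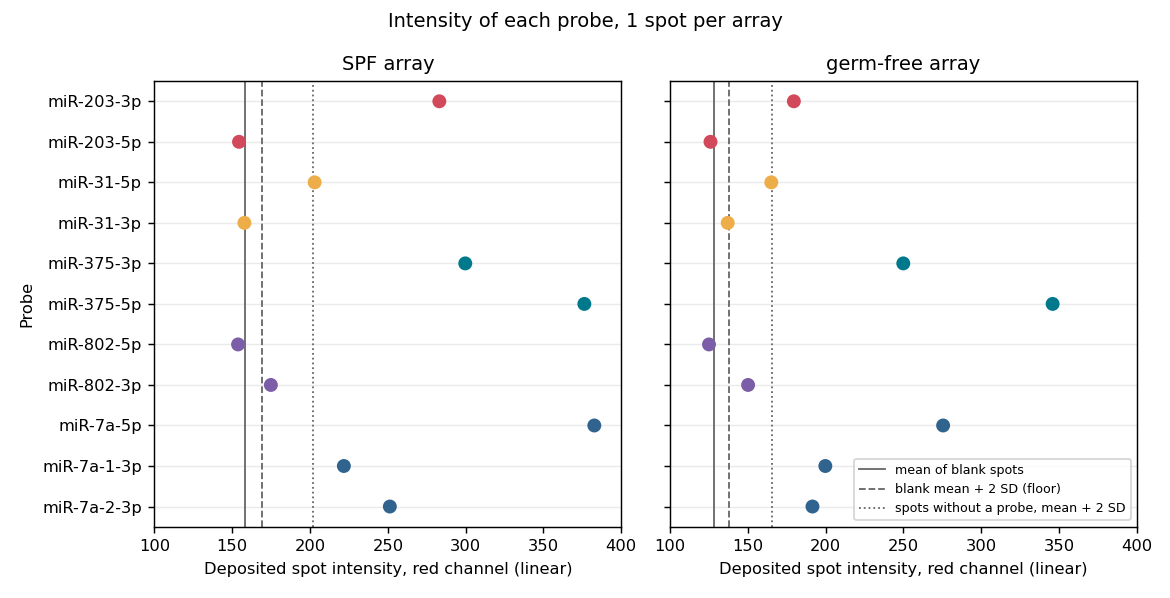
Deposited spot intensity (horizontal axis, linear, arbitrary units) of each of the 11 probes on the SPF array (left) and the germ-free array (right), with 1 spot per point. Lines mark the blank mean, the floor and the mean + 2 SD of spots without a probe, and miR-203-5p, miR-31-3p and miR-802-5p lie below the floor on both arrays.

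miR-203-3p, the arm that represses p63, had an intensity of 283.1 on the SPF array and 179.6 on the germ-free array. Its scaled net intensity was 106.0 on the SPF array and 51.0 on the germ-free array, a log2 SPF over germ-free of 1.05, or 2.08-fold. Of the 1471 probes, 20 had a log2 value at or above it. The technical SD of this log2 value was 0.19, from the spread of repeated bright control spots and of the blank spots, and 0.37 when the spread of spots without a probe was used instead. The other arm, miR-203-5p, gave 154.4 on the SPF array and 126.0 on the germ-free array. Both are below the blank mean, so the 5p arm was not detectable at this sensitivity and gives no ratio.

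The call for miR-203-3p lies close to the threshold. The log2 value was 0.96 with the spike control probes set equal, 0.94 with a pseudocount equal to the floor and 0.91 after the median of each block of spots was subtracted. The median log2 of the block that holds its spot was 0.14. The log2 value was 0.38 without background subtraction and 0.53 with the local background of each spot subtracted. Local background at its spot was 172.2 on the SPF array and 124.2 on the germ-free array. The value was positive under all 13 alternative settings, between 0.38 and 1.29.

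**Figure D2:**
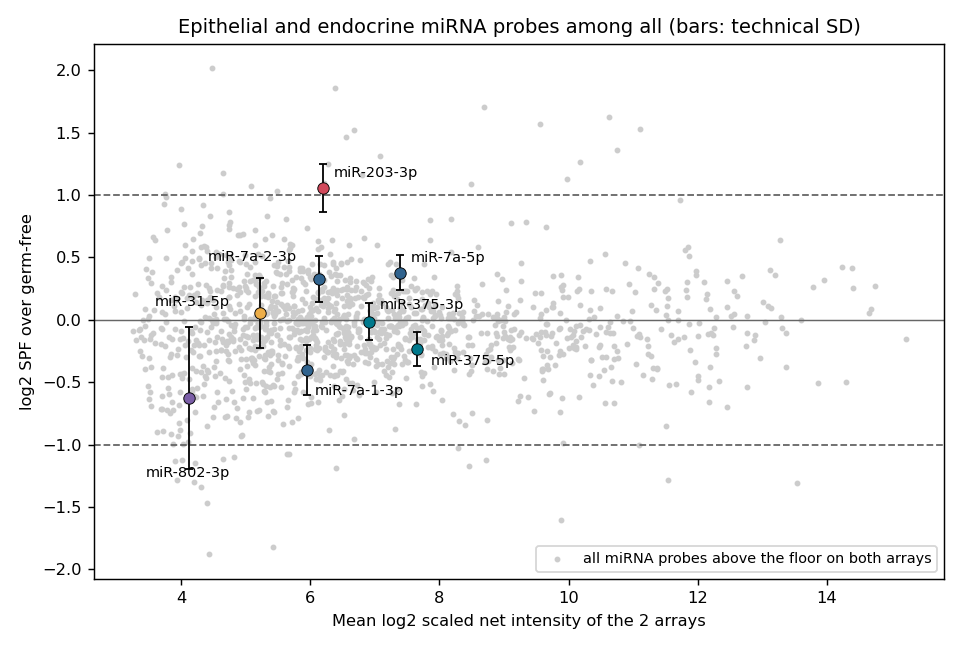
Log2 SPF over germ-free (vertical axis) against the mean log2 scaled net intensity of both arrays (horizontal axis) for all 1471 shared probes in grey and the 8 probes described in colour, with bars of 1 technical SD from control and blank spots. miR-203-3p at 1.05 lies above the upper 2-fold line (dashed), and the other 7 lie between -0.62 and 0.37.

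miR-31-5p, the arm known from intestinal regeneration, had an intensity of 203.0 on the SPF array and 165.1 on the germ-free array. Its scaled net intensities of 37.9 on the SPF array and 36.5 on the germ-free array give a log2 value of 0.05 with a technical SD of 0.28. The arrays did not differ beyond that spread, and the value was -0.04 with the spike controls set equal. The germ-free intensity lies just under the stricter level of 165.8, while the SPF intensity lies just over its level of 202.2. The other arm, miR-31-3p, was at 157.8 on the SPF array, below the blank mean, and at 137.1 on the germ-free array, just under the floor of 137.6.

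Both arms of miR-375 were well above the floor on both arrays. miR-375-3p, the arm studied in pancreatic islets, had an intensity of 299.8 on the SPF array and 249.9 on the germ-free array. Scaled net intensities were 120.1 on the SPF array and 121.4 on the germ-free array, and the log2 value of -0.01 is smaller than its technical SD of 0.15. miR-375-5p was at 376.3 on the SPF array and 345.9 on the germ-free array, a log2 value of -0.23 with a technical SD of 0.14. Its value was 0.00 without scaling, a setting that moved the median of all probes by 0.24. The arms differed by 0.22 in log2 value, with a technical SD of 0.20 for that difference.

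For miR-375-3p the result rests on how background is handled. Local background at its spot was 290.5 on the SPF array, or 96.9% of the spot's intensity, and 210.9 on the germ-free array, or 84.4%. Subtracting it left 9.24 on the SPF array and 39.0 on the germ-free array, a log2 value of -2.55 after scaling. Over the 11 spots local background was 44.6% to 96.9% of the intensity on the SPF array and 52.1% to 85.8% on the germ-free array, lowest on both arrays at miR-375-5p. With the local background subtracted, miR-375-5p was at -0.14.

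miR-802-5p was below the blank mean on both arrays, at 153.7 on the SPF array and 125.1 on the germ-free array. miR-802-3p was at 174.8 on the SPF array and 150.2 on the germ-free array, above the floor but below the level of spots without a probe on both. Its log2 value of -0.62 had a technical SD of 0.57, and 1.36 with the spread of spots without a probe. It is the probe past 1.5-fold lower, with a value about the size of its own technical SD.

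miR-7a is made from both Mir7-1 and Mir7-2, which share the 5p arm and differ in the 3p arm. The related gene Mir7b, on chromosome 17, makes miR-7b. The 5 sequences are shown with seeds in capitals, because the 3p arms tell the 2 miR-7a genes apart.
miR-7a-5p: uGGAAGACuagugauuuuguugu
miR-7b-5p: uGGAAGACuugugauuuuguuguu
miR-7a-1-3p: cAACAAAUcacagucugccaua
miR-7a-2-3p: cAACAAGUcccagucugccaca
miR-7b-3p: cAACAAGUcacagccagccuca
Counted from 1 at the 5′ end, miR-7a-2-3p differs from miR-7a-1-3p by A7G, A10C and U21C, the first of which lies in the seed. miR-7a-2-3p and miR-7b-3p share a seed, but miR-7a-2-3p differs from miR-7b-3p by A10C, C14U, A16U and U20A, all outside the seed. miR-7a-5p and miR-7b-5p also share a seed and are 2 single-base edits apart. Sequences this close allow cross-hybridisation between the probes.

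miR-7a-5p, the arm known from endocrine cells, had an intensity of 382.7 on the SPF array and 275.5 on the germ-free array. The scaled net intensities of 190.5 on the SPF array and 147.0 on the germ-free array give a log2 value of 0.37 with a technical SD of 0.14. With the spread of spots without a probe the technical SD was 0.19. The log2 value stayed positive under the 13 settings, between 0.20 and 0.61. Local background at the miR-7a-5p spot was 82.6% of the intensity on the SPF array and 85.8% on the germ-free array. The germ-free share was the highest among the probes described. With local background subtracted, miR-7a-5p was at 0.28. miR-7b-5p, of the same seed, was close to the floor, at 17.4 on the SPF array and 18.7 on the germ-free array in scaled net intensity. Its log2 value of -0.10 had a technical SD of 0.53, and the difference of 0.48 from miR-7a-5p is within its own technical SD of 0.55.

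The 3p arms of the miR-7a genes had log2 values of opposite sign, from 1 spot each. miR-7a-1-3p, from the Hnrnpk intron, had scaled net intensities of 53.9 on the SPF array and 71.3 on the germ-free array. Its log2 value was -0.40 with a technical SD of 0.20. miR-7a-2-3p had 79.0 on the SPF array and 63.0 on the germ-free array, a log2 value of 0.33 with a technical SD of 0.18. With the spread of spots without a probe the technical SD was 0.39 for miR-7a-1-3p and 0.35 for miR-7a-2-3p, about the size of the values. Their log2 values differed by 0.73 with a technical SD of 0.27, or 0.53 with the spread of spots without a probe. miR-7b-3p, which has the seed of miR-7a-2-3p but 4 other bases outside it, was at 0.36. Its log2 value differed from that of miR-7a-2-3p by 0.04 with a technical SD of 0.25.

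A scaling by 1 factor moves both probes alike and so cannot change this difference, although it can change either sign, which it did not in the scalings run. When local background was subtracted both were below 0, miR-7a-2-3p at -0.10 and miR-7a-1-3p at -0.34. The difference was 0.39 after block medians were subtracted and 0.24 without background subtraction. The spots lie in different blocks, whose median log2 values were -0.17 for miR-7a-1-3p and 0.17 for miR-7a-2-3p.

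**Figure D3:**
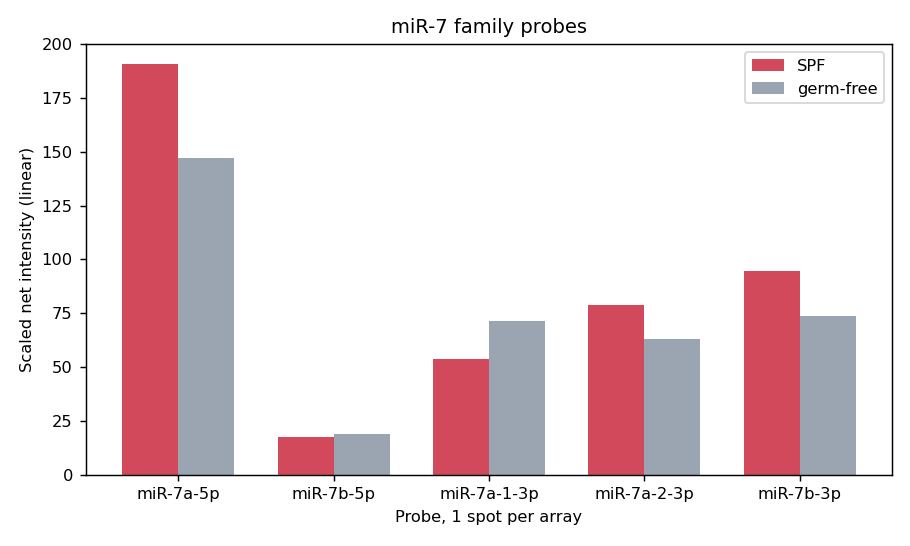
Scaled net intensity (vertical axis, linear, arbitrary units, from 0) of the 5 miR-7 family probes on the SPF array (left bars) and the germ-free array (right bars), 1 spot each and no error bar. miR-7a-1-3p is lower on the SPF array (SPF 53.9, germ-free 71.3), while miR-7a-2-3p (SPF 79.0, germ-free 63.0) and miR-7b-3p (SPF 94.8, germ-free 73.7) are higher.

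A list of 10 other miRNAs, taken here to stand for intestinal epithelium, was set beside the 5 miRNAs. It held the miR-200 family, miR-192, miR-194, miR-215, miR-196a and miR-196b, and whether each is particular to epithelium was not tested. Of the 22 probes of that list, 20 were above the floor on both arrays, with a median log2 value of 1.11. Higher on the SPF array were 19 of the 20, where 623 of all 1471 probes were. At least 2-fold higher were 11 of the 20, where 1.56% of all probes were, and these 11 are among the 23 probes that make up that share. The list was chosen with earlier results of these data known, so these counts describe it and lend no support. The brightest probes of that list were miR-200b-3p at 1.53, miR-192-5p at 1.62 and miR-194-5p at 1.36. The summed scaled net intensity of that list was 15368 on the SPF array and 5931 on the germ-free array. For the 11 probes described the sum was 786.5 on the SPF array and 737.7 on the germ-free array. Such sums are read between the arrays for 1 list and not between lists, and the brightest probes weigh most in them. On the same arrays the 8 probes of the 5 miRNAs ran from -0.62 for miR-802-3p to 1.05 for miR-203-3p, with miR-7a-5p at 0.37, miR-7a-2-3p at 0.33, miR-31-5p at 0.05, miR-375-3p at -0.01, miR-375-5p at -0.23 and miR-7a-1-3p at -0.40. The part of epithelial cells in the values of the 5 miRNAs was not tested, nor was the difference between the lists.

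A list of 12 related miRNAs, chosen for links to other epithelia, pancreas or endocrine cells, held miR-7b, miR-24 and miR-29a among them. Of its 25 probes 15 were above the floor on both arrays, with 8 above 0, 7 below and a median of 0.03. At least 2-fold higher was 1 of the 15, miR-182-5p at 1.31 (1.56% of all probes), and none was 2-fold lower (1.43% of all probes). From the same miRNA cluster, miR-96-5p was at 0.58 and miR-183-3p at -0.42. miR-182-3p, miR-183-5p and miR-96-3p were not above the floor on both arrays. miR-205-5p, a miRNA of squamous epithelium, was at -0.19. The brightest probes were miR-29a-3p at -0.70 and miR-24-3p at 0.03. The summed scaled net intensity of the related list was 11388 on the SPF array, of which miR-24-3p made up 5920 and miR-29a-3p 4409. On the germ-free array it was 13899, of which miR-24-3p made up 5792 and miR-29a-3p 7143.

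Leukocyte miRNAs, which the mononuclear preparation should hold, were present on both arrays. Of 12 probes 10 were above the floor on both, and 8 of these were lower on the SPF array, with a median of -0.52. Of all 1471 probes, 848 were lower. At least 2-fold lower were 2 of the 10, where 1.43% of all probes were. This list too was chosen with earlier results of these data known. The brightest leukocyte probes were miR-150-5p at -1.31 and miR-142a-5p at -0.66. The 2 above 0 were miR-223-3p at 0.74 and miR-146a-5p at 0.07. The summed scaled net intensity of the list was 17052 on the SPF array and 31830 on the germ-free array. miR-7 and miR-375 also occur in neuroendocrine cells, and of 14 neuronal probes 5 were above the floor on both arrays, with a median of -0.25. The 5 were miR-128-2-5p at -0.25, miR-128-1-5p at 0.01, miR-128-3p at -0.43, miR-124-3p at -0.29 and miR-219a-2-3p at 0.02. miR-124-3p lay just over the floor on both arrays, with a technical SD of 0.89, and that of miR-219a-2-3p was 0.46. Both arms of miR-9 and of miR-137 were below the floor on both arrays. The summed scaled net intensity of the neuronal list was 1925 on the SPF array and 2263 on the germ-free array, of which miR-128-2-5p made up 1577 on the SPF array and 1871 on the germ-free array. The part of leukocytes or neurons in the values of the 5 miRNAs was not tested.

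**Figure D4:**
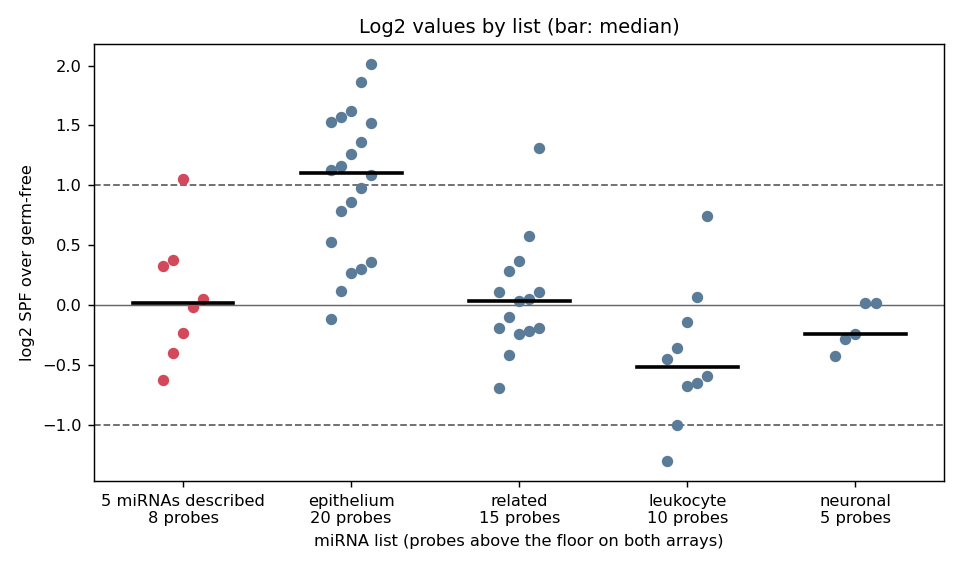
Log2 SPF over germ-free (vertical axis) of each probe above the floor on both arrays, by list, with the median as a bar. The 8 probes of the 5 miRNAs centre on 0.02, the epithelium list on 1.11, the related list on 0.03, the leukocyte list on -0.52 and the neuronal list on -0.25.

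Base composition can affect how brightly a probe hybridises. Over 1250 shared probes with a sequence, the Spearman correlation of GC content with mean log2 intensity was 0.39 and with the log2 SPF over germ-free 0.04, as a description across probes that share the 2 arrays. miR-375-5p has a GC content of 68.2% and miR-802-5p one of 31.8%, beside a median of 54.5% for the shared probes. miR-203-3p has one of 40.9%. The part of base composition in the log2 values of the 5 miRNAs was not tested.

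**Figure D5:**
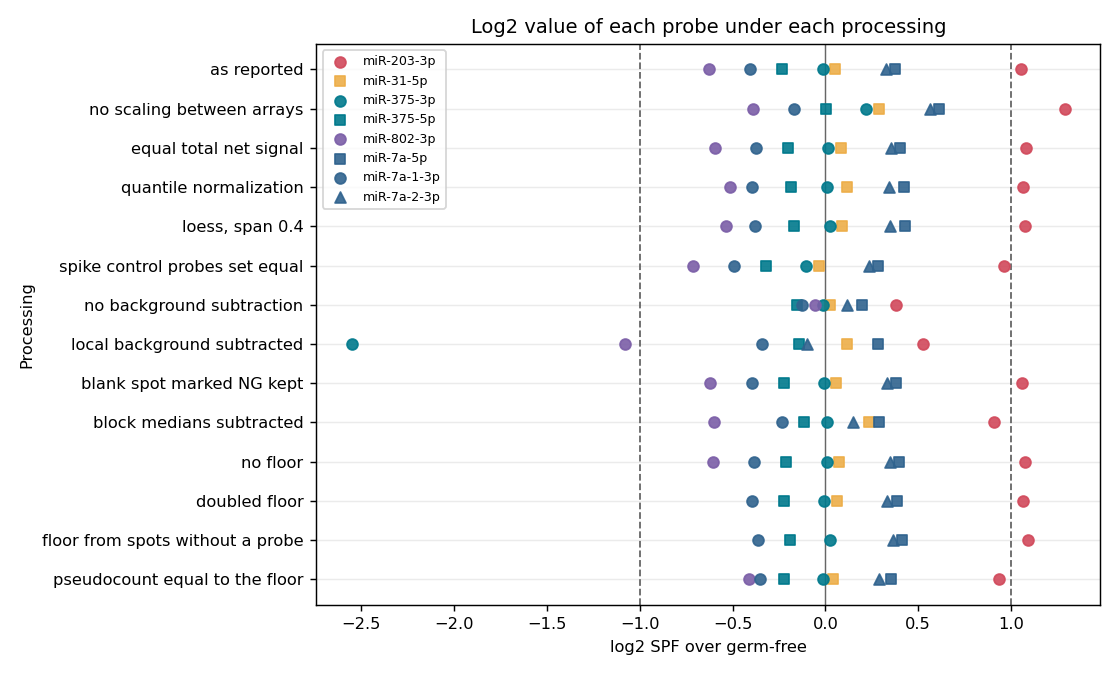
Log2 SPF over germ-free (horizontal axis) of the 8 probes as reported and under 13 other settings (rows). miR-802-3p has no value under either raised floor, and miR-31-5p has none when spots without a probe set the floor, and miR-375-3p moves to -2.55 when local background is subtracted.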

How the data were processed

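The authors labelled total RNA with Hy5 and an Exiqon kit, per the labels' protocols. For each of 3200 spots the authors deposited a median intensity and the median intensity of its surroundings (local background), from scans at 3 gains, per the file headers, with no subtraction or scaling visible. Array platform and scanner were not given in the sources used here. Here the mean of blank spots was subtracted (1 spot marked NG left out), the floor was that mean + 2 SD, and SPF values were scaled to the germ-free median. The technical SD of a log2 value combines the SD of 0.0908 between repeated spots of 5 bright control probes (8 spots each) with the SD of blank spots or of spots without a probe, and it holds no spread between arrays. The number of arrays limits the precision. All probes of the 5 miRNAs, up to 3 of the brightest of each list and the probes sharing a seed were to be named. The probes of miR-182, miR-183 and miR-96, and miR-205-5p, miR-223-3p, miR-146a-5p and neuronal probes beyond 3, were named after their values were seen. The members and lists were chosen with earlier results of these data known. The procedure was tested on simulated arrays without block or local background effects, and only on probes well above the floor. That test does not cover miR-31-5p or miR-802-3p. Python 3.11.15, numpy 2.4.6, pandas 2.3.3 and statsmodels 0.14.6 were used, with sequences from RefSeq and positions from GENCODE M21.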

Additional observations from a re-analysis of the deposited data

How the results depend on the processing

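No paired analysis was possible because each group has 1 array. Of the 8 probes, those with a value kept within their technical SD in 88 comparisons with another setting and moved by more in 13, all of them without scaling, without background subtraction or with local background subtraction. The count of 1 probe at least 2-fold higher was 0 with spike controls set equal, without background subtraction, with local background subtracted, with block medians subtracted, with the pseudocount and at 3-fold. The count of 0 lower probes was 2 with local background subtracted (miR-375-3p and miR-802-3p) and 1 at 1.5-fold, and the count in either direction was 2 in both cases. The median of 0.02 was 0.26 without scaling, -0.12 with local background subtracted and 0.20 when spots without a probe set the floor. The cause was not tested. Signal close to the blank spots limits the precision of miR-802-3p and miR-31-5p.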
